A study of Homo sapiens with 3 samples.

Results

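The WNT pathway genes described here are 53 genes of the 18877 symbols in the deposited table, with 78 of its 29156 RefSeq rows. They are every symbol of the pattern WNT plus a number (19 ligands) or FZD plus a number (10 Frizzled receptors), and 24 listed genes. The listed genes are the co-receptors, the genes that set receptor turnover and the secreted antagonists. They also hold the scaffolds of the beta-catenin destruction complex with its kinase GSK3B, the kinase NLK and the TCF/LEF transcription factors. All 53 were in the table and all had a value in each library. RNA sequencing measured poly-A RNA in A2780, an established human ovarian cancer line whose tumour of origin is labelled undifferentiated, in 3 libraries. Cells expressing exogenous miR-181a gave 2 libraries, labelled p181a #1 and p181a #2 and called pool 1 and pool 2 here, and cells carrying the empty pBABE vector gave 1 library. The labels call the miR-181a cells clones in one field and polyclonal pools in another, and the promoter that drives the microRNA is not given in the sources used here. Whether the 2 pools were separate cultures is not stated either, so the p-values rest on the spread of 2 libraries, and that spread may be technical.

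WNT ligands are secreted lipid-modified proteins that bind a Frizzled receptor together with LRP5 or LRP6. Binding stops a cytoplasmic complex of AXIN, APC and GSK3B from marking beta-catenin for degradation, and beta-catenin then enters the nucleus and works with TCF and LEF proteins on target genes. Secreted proteins of the DKK, SFRP and WIF families hold the pathway back outside the cell, RNF43 and ZNRF3 remove Frizzled receptors from the surface, and LGR receptors with their R-spondin ligands counter that removal. In ovarian cancer the pathway is known for beta-catenin mutations in the endometrioid type, and for raised activity without such mutations in other types.

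NLK, a kinase that phosphorylates TCF and LEF proteins, WIF1, which binds WNT ligands outside the cell, and SFRP4, a soluble Frizzled-like antagonist, are genes reported elsewhere as miR-181 targets. The mature miR-181 sequences are shown first because their shared seed (bases 2 to 8, in capitals) defines the matches counted here. They are taken from RefSeq, in a table on GRCh38.p14.
hsa-miR-181a-5p: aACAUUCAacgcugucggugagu
hsa-miR-181b-5p: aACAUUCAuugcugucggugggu
hsa-miR-181c-5p: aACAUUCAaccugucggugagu
hsa-miR-181d-5p: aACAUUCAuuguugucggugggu
All 4 share the seed, so a seed match does not tell them apart.

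Matches to that seed on the sense strand of the 3′ UTR were counted in 1 GENCODE transcript per gene on GRCh37, the assembly behind the hg19 build of the files. A match was TGAATGTA (8-mer), TGAATGT without the last A (7-mer-m8) or GAATGTA without the first T (7-mer-A1), with none counted under more than 1 type. Of the 53 genes, 15 (28.3%) held at least 1 match, against 25.2% of the 16216 genes of the table with an annotated 3′ UTR, so the share was near that of all genes. An 8-mer was found in 1 of the 53 (1.9%), FZD3, against 6.4% of all genes. The matches of the reported targets and of the 3 matched genes with the lowest log2 folds among tested genes above 0 in both pools, chosen after their values were seen, are printed with the bases before them, the match in capitals.
NLK: gttcagtgtggagacttgaaactTGAATGT
WIF1: gcctttgttaacctttcatgtgtTGAATGT
SFRP4: tctaagaaggaacagtagtggaaTGAATGT
LRP6: taatatctttctgttacccactgTGAATGT
GSK3B: aagccctgcctttgttttggttcTGAATGT
TCF7L2: tataacattttttgtgaatacttTGAATGT
All 6 are 7-mer-m8 matches, and each gene had this 1 match. The NLK window lies at chr17:26522849-26522878 (plus strand), that of WIF1 at chr12:65445058-65445087 (minus), that of SFRP4 at chr7:37946594-37946623 (minus) and that of LRP6 at chr12:12272704-12272733 (minus). The GSK3B window lies at chr3:119542557-119542586 (minus) and that of TCF7L2 at chr10:114927246-114927275 (plus). The match of WIF1 starts 65 bases into a 3′ UTR of 723 bases, and that of SFRP4 481 bases into one of 1547. A match is a description of the letters and not evidence that the site is used. How much miR-181a the cells held was not analysed here.

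The values are the authors' coverage of each RefSeq transcript, the median over sliding windows of 50 bp, which is already per length and so can be compared between genes. A median over windows is 0 where most windows have no reads, so reads may exist for a gene at 0, and the depth of the libraries is unknown. Coverage over all rows with a vector value summed to 907092 in pool 1, 719263 in pool 2 and 798228 in the vector library, and 32.3%, 32.2% and 12.8% of these rows were at 0. Of 8822 rows at 0 in both pools, 5549 (62.9%) were above 0 in the vector library, which touches every gene given as lower below. Mesenchymal markers, 6 genes, summed to 2476, 2126 and 1248 in pool 1, pool 2 and the vector library, mostly VIM, with FN1 at 0 in both pools. CDH2 had 51.5 and 39.7 in the pools, against 7.02 in the vector library, and COL1A1 had 0 and 0.706, against 7.41. Epithelial markers summed to 20.7, 19.8 and 202 over 10 genes, for pool 1, pool 2 and the vector library, with EPCAM, CDH1, KRT7, KRT19 and CLDN7 at 0 in both pools. CDH1 and KRT7 were at 0 in the vector library as well. Only CLDN4 was higher in both pools, with 1.76 and 1.21, against 0.589. All 7 ovarian carcinoma lineage markers examined were at 0 in both pools and summed to 125 in the vector library, of which ESR1 made up 104, while PAX8 was at 4.71, MUC16 at 0.649 and WT1 at 0. Endothelial markers, 5 genes, summed to 0, 0.04 and 222, and immune markers, 5 genes, to 2.36, 2.44 and 33.6. The part of these markers in the results was not tested. In bulk RNA, fewer cells of a type and less RNA per cell cannot be told apart.

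In the pools the pathway was represented by most Frizzled receptors, the co-receptors, intracellular genes and a few antagonists and genes of receptor turnover, with hardly any ligand. Of 10 Frizzled receptors, 9 had a mean coverage of at least 1 over both pools, as had 3 of 9 secreted antagonists and 2 of 19 ligands. A mean coverage of at least 1 over both pools was reached by 25 of the 53 genes (47.2%), against 58.9% of all 18674 genes with a vector value, and a mean of at least 10 by 10 of them (18.9%), against 38.7% of all genes. Those 10 were FZD8, LRP5, DKK1, FZD7, AXIN1, FZD2, LRP6, LGR4, GSK3B and FZD3, in order of level. FZD8 led with a coverage of 60.9 in pool 1 and 35.2 in pool 2, against 31.1 in the vector library. LRP5 followed with 52.7 and 33.4 in the pools, against 24.2 in the vector library. The ranges of the 2 pools overlapped for each pair of neighbours in that order except LRP5 and DKK1, but pool 2 was the lower pool for all of these genes. Within each pool FZD8 was also above LRP5, FZD7 above AXIN1, FZD2 above LRP6 and GSK3B above FZD3. The order of DKK1 and FZD7, AXIN1 and FZD2, LRP6 and LGR4, and LGR4 and GSK3B differed between the pools.

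**Figure D1:**
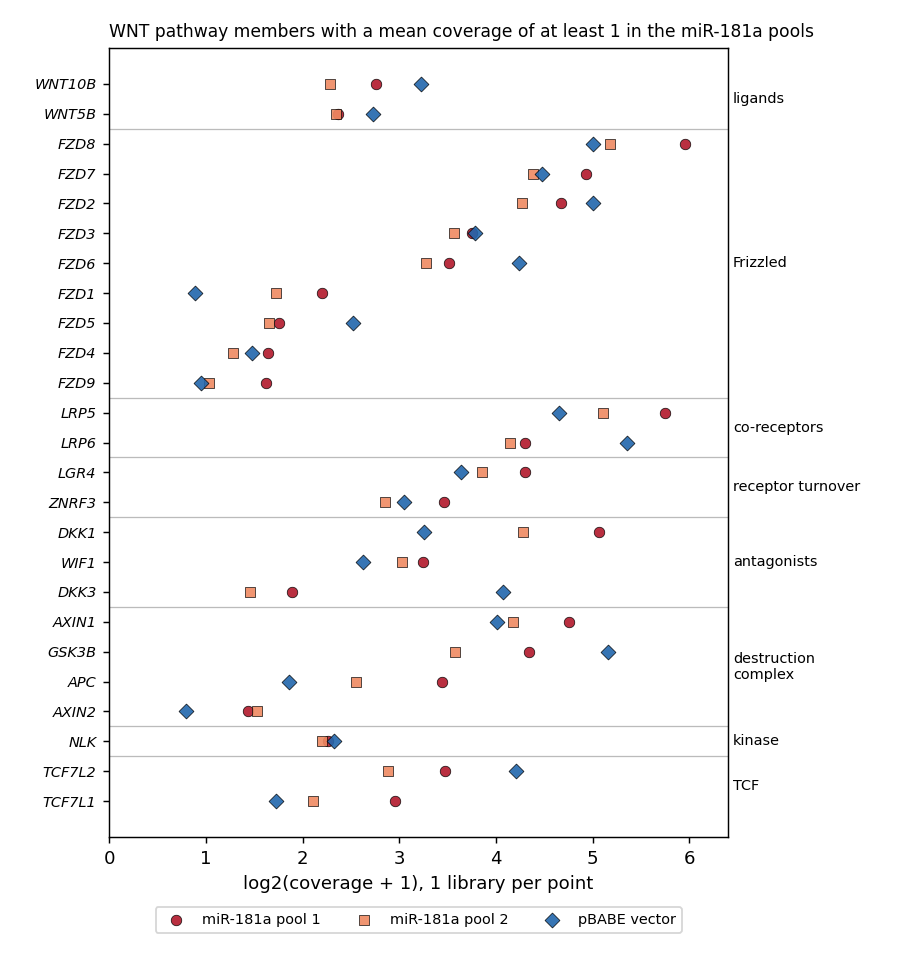
Coverage of the 25 genes with a mean of at least 1 in the pools, on the log2(coverage + 1) scale, with 1 point per library (red circles for pool 1, orange squares for pool 2, blue diamonds for the vector library) and the genes grouped by role. Pool 2 lay below pool 1 for every gene shown but AXIN2, and DKK1 lay above the vector library in both pools while LRP6, GSK3B and DKK3 lay below it.

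Folds below are differences of log2(coverage + 1), pool minus vector, a scale on which low genes appear to differ less than they do. The test was limma over the 12552 genes whose mean over the 3 libraries was above 2.435, with Benjamini-Hochberg adjustment over all of them at 0.05. Only 1 residual degree of freedom is left, from the difference between the pools, and the fit assumes that the lone vector library varies as they do. A fit limited to genes above 0 in both pools estimates the variance shared between genes anew. Its SE and p-values therefore differ at the same fold, and a lower p-value there is no firmer evidence. An exact permutation of 2 libraries against 1 cannot go below p = 0.333. Genes differing from the vector library by 1 log2 unit or more, to the same side in each pool, were also counted, as a size rule. Of the 53 genes, 27 passed the filter on low values. Among these 27, limma called 8 as fallen (21.7% of all tested genes) and none as risen (1.00% of all tested genes). At an unadjusted p under 0.05 it gave 10 lower, the 8 among them, and 0 higher. The share of all tested genes at that threshold was not counted, so these counts cannot be set beside it. The count of risen genes rested on the scaling, at 9 with library medians set equal (50.6% of all tested genes), 12 after quantile normalization (44.9%) and 2 when the libraries were aligned on genes of coverage above 50 (8.28%), which also called 15 as fallen (42.9%). The size rule held for 1 gene upward, DKK1 (2.53% of all tested genes), and for 8 downward (27.3% of all tested genes). These shares were near those of all tested genes and are no result about WNT genes as a group.

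Of the 8 genes called as fallen, 6 were at 0 in both pools: WNT6, WNT4, WNT3A, WNT9A, WNT16 and TCF7. With both pools at 0, the filter admits a gene only on a vector value above 7.3, so the direction of these 6 was fixed by the filter, and with no spread between the pools the test is formal. The other 2, FZD5 and DKK3, were low in the pools and needed vector values above 2.77 and 2.85 to pass, which is above both of their pools. All 8 could therefore enter the test only as lower, and their direction is no result. Among the 21 tested genes above 0 in both pools, 8 lay above the vector library in both pools (51.7% of all such genes, and 44.6% of all tested genes) and 11 below it in both (32.5% of all such genes). Of the same 21, limma called FZD5 and DKK3 as fallen (9.35% of all such genes) and none as risen (1.16%), which the filter again fixed. FZD1, at a similar pool level and above the vector library in both pools, was left out by it. For these 21, the size rule held upward for DKK1 (2.94%) and downward for DKK3 and LRP6 (15.7%). The median log2 fold of the 21 was -0.09, against 0.22 over the 10818 tested genes above 0 in both pools. This gap rested in part on the rows used. Of the 11 genes below the vector library, FZD6, WNT5B, DKK3 and TCF7L2 were below it in both pools in only some of their rows. In an alternative chosen after seeing the data, rows were picked by the pools with ties to the lowest vector value. The medians were then 0.25 over 20 WNT genes and 0.31 over 10781 genes above 0 in both pools.

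**Figure D2:**
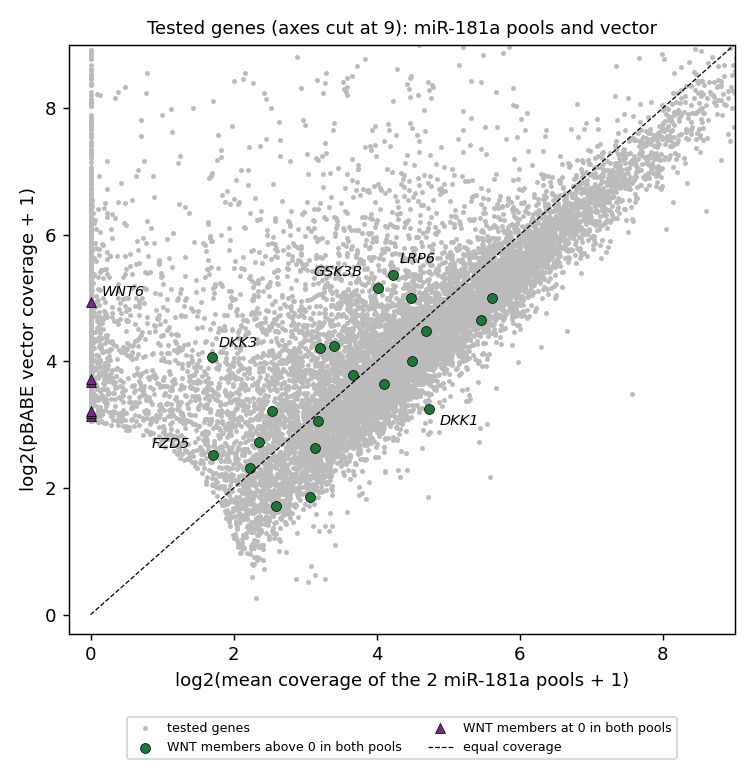
Each tested gene by the mean coverage of the 2 pools (horizontal) and the vector coverage (vertical), both as log2(coverage + 1), with WNT genes above 0 in both pools as green circles, those at 0 in both pools as purple triangles and a dashed line at equal coverage. The 6 triangles stand on the left edge, where vector values reach high levels for many genes, and the circles lie on both sides of the line.

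Most ligands were listed at 0 in the pools. Of 19, 13 were at 0 in both pools (32.3% of all genes were), and 3 of these, WNT2, WNT7B and WNT10A, were at 0 in the vector library as well. WNT10B had the highest mean ligand coverage in the pools, with 5.76 and 3.89, against 8.32 in the vector library. WNT5B, a ligand linked to the branch that does not use beta-catenin, had 4.17 and 4.08, against 5.63 in the vector library in the row used. Both lay below the vector library in both pools and neither passed the test (limma adjusted p = 0.264 for WNT10B and 0.109 for WNT5B). WNT3 had a coverage of 1.41 and 0.323 in the pools, against 4.38 in the vector library. WNT11 had 0.511 and 0.558 in the pools, against 0 in the vector library, and WNT5A had 0.068 and 0.137, against 1.88 in the vector library. WNT2B was at 0.109 in pool 1 and 0 in pool 2, against 1.22 in the vector library, in the row used, and at 0.226 and 0.188 in the pools, against 0, in its other row. None of these 4 passed the filter.

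The 10 ligands at 0 in both pools and above 0 in the vector library were led by WNT6, at 29.5 in the vector library (limma log2 fold -4.93, adjusted p = 8.67e-06). The filter fixed the direction of WNT6 and its pools had no spread, so that p-value is formal. WNT4 had a vector coverage of 12.2 and WNT3A, a classical activator of beta-catenin signalling, 11.7. WNT9A had 8.08, and WNT16 had 7.78 in 1 row and 0 in its other. WNT8B, WNT7A, WNT8A, WNT9B and WNT1 had vector values of 5.43, 3.80, 3.18, 2.03 and 1.01 and did not pass the filter. Values of this kind were as common in the table at large: of the 22 WNT pathway genes at 0 in both pools, 15 (68.2%) were above 0 in the vector library, against 67.9% of all 6038 such genes. The median vector value of those 15 was 5.43, against 4.75 over all 4101 genes of that kind. A vector value as high as that of WNT6 or higher was found in 6.49% of the 6038 genes, and one as high as that of WNT3A in 17.3%.

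The Frizzled receptors were measured in 9 of 10 cases, with FZD10 at 0 in all libraries. FZD8, described above, differed by 0.56 log2 units (SE 0.49; limma adjusted p = 0.485). FZD7 had a coverage of 29.5 and 19.9 in the pools, against 21.3 in the vector library, which lay between the pools, and the sign of its fold (0.18) turned when the libraries were aligned on genes of high coverage (-0.20). FZD2 had 24.5 and 18.3 in the pools, against 31.0 in the vector library, and FZD3 had 12.5 and 10.8, against 12.8, with a fold (-0.13) that turned with library medians set equal (0.29) and with quantile normalization (0.47). FZD6 had 10.4 and 8.68 in the pools, against 17.9 in the vector library in the row used. FZD1 had 3.61 and 2.31, against 0.853, and FZD9 had 2.08 and 1.04, against 0.929. FZD4 had 2.11 and 1.43, against 1.79 in the vector library, and these 3 did not pass the filter.

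FZD5, a receptor of low coverage here, had 2.38 and 2.16 in the pools, against 4.75 in the vector library. By limma it was called as fallen (adjusted p = 0.0205), its log2 fold of -0.82 (SE 0.06) being short of the size rule. Both pools lay below the vector library, but the filter had fixed that direction, as given above, so neither is a result. The call was lost among genes above 0 in both pools (adjusted p = 0.0612) and with library medians set equal (log2 fold -0.40), and quantile normalization turned the fold to 1.36.

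The co-receptors lay on opposite sides of the vector library. LRP5 had the coverage given above and differed by 0.77 log2 units (SE 0.42; limma adjusted p = 0.33). LRP6 had 18.7 and 16.7 in the pools, against 40.0 in the vector library. Its log2 fold was -1.13 (SE 0.24, limma adjusted p = 0.118), past the size rule and not the test. Both pools were above the vector library for LRP5 and below it for LRP6, and both genes had a single row. The order of the co-receptors in coverage was LRP5 above LRP6 in each pool and LRP6 above LRP5 in the vector library.

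Among the genes of receptor turnover, LGR4, an R-spondin receptor, had a coverage of 18.7 and 13.4 in the pools, against 11.5 in the vector library, and ZNRF3, a ubiquitin ligase that removes Frizzled, had 9.99 and 6.20, against 7.30. Neither passed the test (limma adjusted p = 0.481 and 0.877). LGR5, a stem cell marker of the intestine, was at 0 in both pools and at 4.32 in the vector library, and RNF43 was at 0 in all 3.

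DKK1, which binds LRP5 and LRP6 and keeps ligands from engaging them, stood out among the antagonists by its level. Its coverage was 32.5 in pool 1 and 18.5 in pool 2, against 8.53 in the vector library, so both pools lay above it and pool 1 well above pool 2. The log2 fold was 1.42 (SE 0.52), 1.81 in pool 1 and 1.03 in pool 2, past the size rule and not the test (limma adjusted p = 0.226). DKK1 passed limma among genes above 0 in both pools (adjusted p = 0.0137) and in 6 of 13 alternatives in all, with a log2 fold from 0.91 to 2.32. Among these 6 were medians set equal and quantile normalization, which called 50.6% and 44.9% of all tested genes as risen. Another of the 6 was chosen after seeing the data. DKK1 has 1 row in the table and lies at chr10:54074041-54077802 on GRCh37.

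WIF1 and NLK, the reported miR-181 targets among the tested genes, did not pass the test. WIF1 had a coverage of 8.48 and 7.18 in the pools, against 5.18 in the vector library, so it stood above it in both pools (log2 fold 0.51, SE 0.21, limma adjusted p = 0.255). NLK had 3.79 and 3.60 in the pools, against 3.99 in the vector library (log2 fold -0.09, SE 0.06, limma adjusted p = 0.377). The sign for NLK turned with library medians set equal (0.33) and with quantile normalization (1.82). SFRP4 was at 0 in both pools and at 4.41 in the vector library and did not pass the filter, and 35.3% of genes at 0 in both pools had a vector value as high or higher.

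The other antagonists were low or at 0 in the pools. SFRP1 had a coverage of 0.551 and 0.091 in the pools, against 0.641 in the vector library, and DKK2 had 0.139 and 0.217, against 1.80. SFRP2 was at 0 in both pools and 0.414 in the vector library, and SFRP5 and DKK4 were at 0 in all 3. DKK3, a divergent relative of DKK1, had 2.71 and 1.75 in the pools, against 15.8 in the vector library in the row used. By limma it was called as fallen (adjusted p = 0.0389), with a log2 fold of -2.40 (SE 0.26), but this depended on the row, as described below. The filter had also fixed the direction of DKK3. The limma call was lost with the mean of its rows (adjusted p = 0.0601), with no filter (0.0648) and with no variance trend (0.0958).

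In the destruction complex, the scaffolds AXIN1, APC and AXIN2 lay on the other side of the vector library from the kinase GSK3B. AXIN1 had a coverage of 26.0 and 17.1 in the pools, against 15.1 in the vector library. APC had 9.87 and 4.88, against 2.63, and its log2 fold was 1.14 (SE 0.53; limma adjusted p = 0.283, and 0.0184 among genes above 0 in both pools). AXIN2, itself a widely used beta-catenin target gene, was low at 1.71 and 1.88 in the pools, against 0.735 in the vector library, and was not tested. GSK3B, the kinase that phosphorylates beta-catenin, had 19.3 and 10.9 in the pools, against 34.6 in the vector library. Its log2 fold was -1.19 (SE 0.51, limma adjusted p = 0.263). AXIN1, APC and AXIN2 were above the vector library in both pools and GSK3B was below it in both. Other kinases, outside the 53 genes, did not share the side of GSK3B throughout. GSK3A had 80.6 and 54.7 in the pools, against 45.2 in the vector library, and CSNK1A1 had 78.1 and 60.5, against 55.5. For CSNK1D the vector library lay between the pools, and CSNK1E lay below it in both pools in the row used. By limma none of these other kinases passed the test.

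Of the transcription factors, TCF7L2 had the highest coverage in the pools, 10.1 and 6.39, against 17.5 in the vector library in the row used (log2 fold -1.03, SE 0.43, limma adjusted p = 0.255). TCF7L1, often a repressor of WNT targets, had 6.73 and 3.32, against 2.30 (log2 fold 0.81, SE 0.49, limma adjusted p = 0.363). LEF1 was at 0 in both pools in all 4 of its rows, with a vector value of 6.36 in 1 row and 0 in the other 3. TCF7, at 0 in both pools in the row used, had vector values from 0.137 to 8.31 over its 7 rows, while no row exceeded 0.236 in pool 1 and all were at 0 in pool 2.

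Rows of 1 gene differed far more in the vector library than in the pools. DKK3 had the same coverage in its 3 rows in each pool, 2.71 in pool 1 and 1.75 in pool 2, whereas the vector library listed 15.8, 15.8 and 1.81. With the third row its log2 fold was 0.40 in pool 1 and -0.03 in pool 2. WNT5B had 4.17 and 4.08 in both rows in the pools, against 5.63 in 1 row and 1.09 in the other in the vector library, so its log2 fold was -0.37 by the first and 1.30 by the second. FZD6 had a vector coverage of 17.9 in the row used and 7.41 and 7.25 in the other two, which put its log2 fold at -0.85 by the first and at 0.32 and 0.22 by the others. TCF7L2 had vector values of 17.5 and 16.0 in 2 rows and 9.17 to 10.3 in the other 4, whose log2 folds were -0.28 to -0.18. The direction in FZD6, WNT5B and DKK3 (mean log2 fold 0.19 by the row of lowest vector value) therefore turned with the row. In TCF7L2 the mean fold shrank and stayed below 0, but in those 4 rows the pool 1 fold was 0.002 to 0.093. By them TCF7L2 was not below the vector library in both pools. WNT2B, which was not tested, turned as well. For APC, AXIN1 and GSK3B the rows agreed within 1.09 times in each library, so their folds did not rest on the row.

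This was a property of the table at large. Among 4029 genes with several rows, each above 0 in all 3 libraries, the highest row was over 1.5 times the lowest in 12.98% of genes in pool 1, 13.06% in pool 2 and 41.38% in the vector library. Of 650 genes whose rows had the same value within each pool, 170 (26.2%) differed by over 1.5 times between rows in the vector library. Of 276 genes whose rows had the same value in the vector library, 4 differed by over 1.5 times in either pool.

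**Figure D3:**
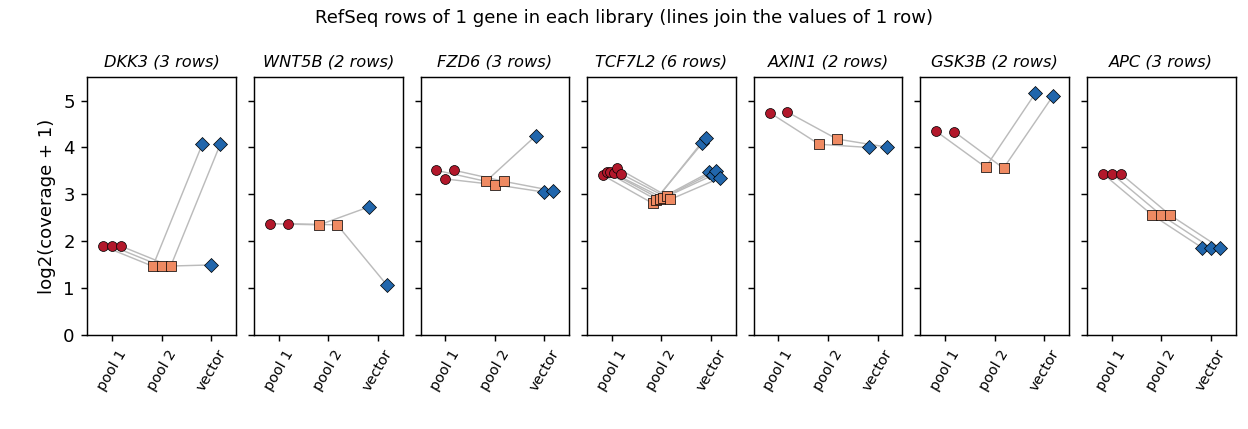
Coverage, as log2(coverage + 1), of every RefSeq row of 7 WNT pathway genes in pool 1 (red), pool 2 (orange) and the vector library (blue), with a grey line joining the 3 values of 1 row. In DKK3, WNT5B, FZD6 and TCF7L2 the rows lie together in the pools and apart in the vector library, while in AXIN1, GSK3B and APC they lie together in all 3.

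The folds were then set beside the seed matches, for the 21 tested genes above 0 in both pools. The 8 with a match (FZD3, GSK3B, LRP6, NLK, TCF7L2, WIF1, WNT5B and ZNRF3) had a median log2 fold of -0.25, with 6 below the vector library in both pools and 1, WIF1, above it in both. The 13 without a match had a median of 0.44, with 5 below and 7 above in both pools. Over all tested genes above 0 in both pools the medians were 0.20 in 2640 genes with a match and 0.24 in 6844 without. The shares below the vector library in both pools were 34.1% and 31.6% of those genes, and the shares above it in both 50.6% and 52.6%. The split in the WNT genes is given as a description of few genes. It rests in part on TCF7L2 and WNT5B, with a match, and on DKK3 and FZD6, without one, whose vector values depended on the row. DKK3 and FZD5, both without a match, could also enter the test only as lower. Over all tested genes above 0 in both pools, those with a match had a longer 3′ UTR, with a median of 2882.5 bases against 894.5 in those without.

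**Figure D4:**
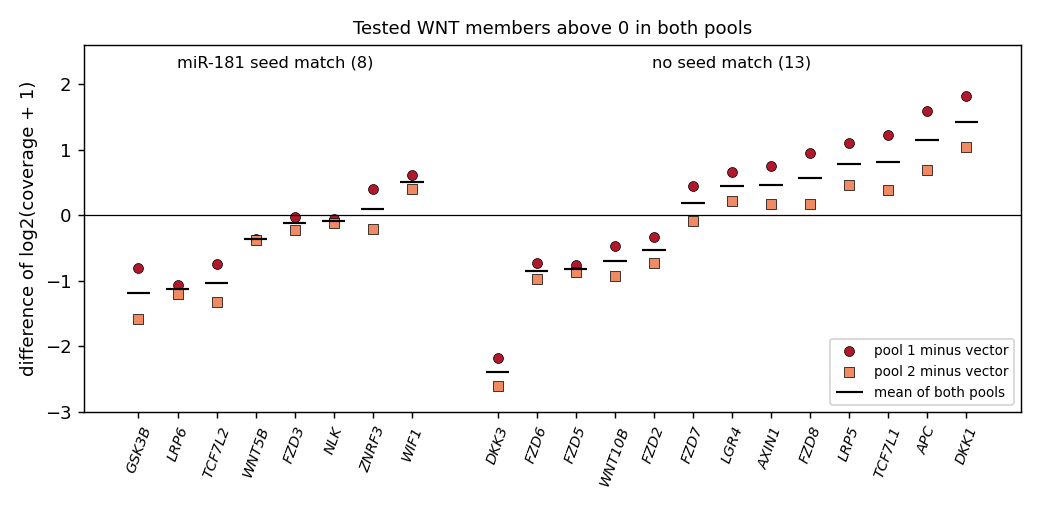
Difference of log2(coverage + 1) between each pool and the vector library for the 21 tested genes above 0 in both pools, split into 8 with and 13 without a match to the miR-181 seed and ordered by their mean (black bar). With a match, GSK3B, LRP6 and TCF7L2 are lowest and WIF1 highest; without one, DKK3 is lowest and DKK1 highest.

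The pools also differed from each other. All 21 of these genes had lower coverage in pool 2 than in pool 1, with a median difference of -0.47 log2 units (pool 2 minus pool 1), and 9605 of the 10818 genes above 0 in both pools did so too, with a median of -0.32.

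The rest of the pathway was taken from lists of other WNT genes, 104 in all, of which 103 were in the table and 80 were tested. Limma called 14 of the 80 as fallen and none as risen, against 21.7% and 1.00% of all tested genes (22 lower and 3 higher at an unadjusted p under 0.05). Shares of all tested genes were not counted at the unadjusted threshold. Of the 14, 11 could pass the filter only with a vector value above both pools, the exceptions being VANGL1, NKD2 and PPARD. The median log2 fold over the 80 was 0.03, against 0.07 over all tested genes. The size rule held for 2 upward and 24 downward (2.53% and 27.3% of all tested genes), of which 2 and 10 did not pass the test. Among genes above 0 in both pools, limma called both of the 2 as risen (4.13% of all genes in that fit) and the 9 of the 10 that were in that fit as fallen (16.9%). These genes had been picked for large folds in the same libraries. Their calls are therefore no separate support and cannot be set against the shares of unselected genes. CTNNB1, which encodes beta-catenin, had a coverage of 261 and 236 in the pools, against 106 in the vector library. Both pools lay above the vector library, in each of the 3 rows of the gene. The log2 fold of CTNNB1 was 1.22 (SE 0.19), past the size rule and not the test (limma adjusted p = 0.0736). Among genes above 0 in both pools its limma adjusted p was 0.0283, although its SE was larger there, at 0.44. The Dishevelled genes DVL1, DVL2 and DVL3, which link receptors to the destruction complex, had log2 folds of 0.44, 0.03 and 0.54 and none passed the test.

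Of 16 nuclear co-factors tested, 1 fell and none rose (21.7% and 1.00% of all tested genes). TLE2, a Groucho co-repressor of TCF proteins, had 15.1 and 10.7 in the pools, against 2.80 in the vector library. It was past the size rule upward in each of its 3 rows (log2 fold 1.85, SE 0.34, limma adjusted p = 0.0925). Among genes above 0 in both pools its limma adjusted p was 0.000127, with a larger SE of 0.43. TLE3, from the same family, was the 1 that fell, with 1.30 and 0.566 in the pools, against 45.6 in the vector library (log2 fold -4.62, limma adjusted p = 0.0182). The other 2 rows of TLE3 had vector values of 3.46 and 4.53 and similar pool values. TLE1, with 7.96 and 6.56 in the pools, against 30.2 in the vector library in its single row, was past the size rule downward and not past the test (limma adjusted p = 0.0745, and 0.000196 among genes above 0 in both pools). Of 11 genes of alternative receptors and planar polarity, 2 fell, VANGL1 and PRICKLE2, and none rose (21.7% and 1.00% of all tested genes). VANGL1, a planar polarity protein, had 4.12 and 3.67 in the pools, against 32.1 in the vector library in the row used and 3.01 in its other 2 rows. PRICKLE2 was at 0 in both pools and at 30.9 in the vector library. SCRIB, a polarity scaffold, was past the size rule downward in 1 of its 2 rows and not past the test.

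Among 24 cytoplasmic transducers, 1 fell and none rose (21.7% and 1.00% of all tested genes). This was NKD2, which binds Dishevelled proteins, with 3.59 and 1.57 in the pools, against 98.0 in the vector library in its single row (log2 fold -4.85, limma adjusted p = 0.0413). DACT3 and CCDC88C, which also bind Dishevelled proteins, were past the size rule downward and not past the test. Of 5 genes of ligand secretion and trafficking, none passed the test in either direction (0 higher and 1 lower at an unadjusted p under 0.05). Of all tested genes, 21.7% fell and 1.00% rose after adjustment, and the unadjusted shares were not counted. PORCN, the acyltransferase that lipid-modifies WNT ligands, had 3.56 and 1.98 in the pools, against 12.6 in the vector library in the row used and 1.63 to 7.71 in its other 4. Of 6 extracellular modulators tested, 2 fell (21.7% of all tested genes), LGR6 and SOST, both at 0 in both pools. LGR6 had a vector coverage of 8.26 in the row used, and of 2.64 and 0 in its other rows. All 4 R-spondin genes, none of them tested, were at 0 in both pools. KREMEN1 and KREMEN2, receptors for DKK proteins, and TPBG, which inhibits signalling at the membrane in zebrafish, were past the size rule downward and not past the test. TPBG had 8.56 and 10.0 in the pools, against 22.5 in the vector library, and was past the size rule in both of its rows, while KREMEN1 and KREMEN2 were in 1 of 2.

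Genes reported as TCF targets were tested in 18 of 27 cases, of which 8 fell and none rose (21.7% and 1.00% of all tested genes). Of these 8, 4 were at 0 in both pools (CD44, ASCL2, EPHB2 and SOX9), and 7, all but PPARD, could pass the filter only with a vector value above both pools. PPARD, a nuclear receptor, fell at a higher level, with 29.4 and 22.1 in the pools, against 152 in the vector library in the row used and 35.8 to 104 in its other 4 rows (limma adjusted p = 0.0429). FOSL1, an AP-1 subunit with a single row, had 0.126 in both pools, against 11.6 in the vector library. EPHB3, an ephrin receptor, had 0.275 and 0.057, against 8.86, and BMP4, a secreted growth factor, had 0 and 0.087, against 13.6 in the row used. The other rows of BMP4 had a vector value of 4.37 and similar pool values. JAG1, a Notch ligand, and TNFRSF19 were past the size rule downward and not past the test. MYC had 71.1 and 43.6 in the pools, against 41.8 in the vector library, and CCND1, which encodes cyclin D1, had 67.3 and 45.4, against 49.1. CCND2, the cyclin D2 gene, named after its values were seen, had 1266 and 768, against 466 (log2 fold 1.08, SE 0.50, limma adjusted p = 0.283, and 0.0351 among genes above 0 in both pools). By limma neither MYC (adjusted p = 0.564) nor CCND1 (adjusted p = 0.768) passed.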

How the data were processed

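Poly-A RNA was sequenced in 2 libraries of A2780 cells expressing miR-181a and 1 of vector cells. Mapping was to hg19, and the authors' coverage signal of a RefSeq transcript is the median over 50-bp sliding windows, per the labels' protocols. A log step and quantile normalization are also named there, whereas the deposited values are linear and are distributed unlike each other in the 3 libraries. The sources used here give no read depth, aligner or annotation, so no counting error could be set. The members and lists were chosen with earlier results of these data known. Of 29156 rows, 308 with no vector value were left out, and 6 columns of ratios derived from the coverage were not used. Each gene was represented by its row of highest mean over the 3 libraries. The test was limma 3.58.1 in R 4.3.3 on log2(coverage + 1), with a trended prior. The filter left out the lowest 25% of genes above 0 in any library. Genes named with every library's value are members past limma or the size rule, members above a pool mean of 10, and NLK, WIF1 and SFRP4. Other members are named for their role. From the other lists, genes past limma or the size rule are named, with CTNNB1, DVL1, DVL2, DVL3, MYC and CCND1. Scaling, filter, pseudocount, row choice and left-out pools were varied.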

Additional observations from a re-analysis of the deposited data

How the results depend on the processing

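The counts moved most with the filter on low values and the scaling. Risen WNT genes by limma, 0 as reported, numbered 2 with no filter (1.66% of all tested genes in that fit), 1 with the median filter (4.80%), 2 among genes above 0 in both pools (4.13%), 9 with library medians set equal (50.6%), 12 after quantile normalization (44.9%) and 2 after a shift by genes of coverage above 50 (8.28%). Fallen ones, 8 as reported, numbered 20 with no filter (33.6%), 2 with the median filter (17.6%), 1 among genes above 0 in both pools (16.9%), 15 after the shift (42.9%) and 5 with the mean of rows (19.8%). By size upward, 1 as reported, there were 3 with medians equal, 9 after quantile normalization, 0 after the shift, 0 with a pseudocount of 10, 2 at a threshold of 0.5 log2 units and 0 at 1.5. By size downward, 8 as reported, there were 20 with no filter, 2 with the median filter, 2 among genes above 0 in both pools, 13 after the shift and 4 with a pseudocount of 10. The shares of all tested genes by size were 2.53% upward and 27.3% downward as reported, and 2.94% and 15.7% among genes above 0 in both pools. Such shares were not counted under the other alternatives, so those counts by size cannot be set beside all genes. Leaving out a pool gave 1 to 4 upward (4 without pool 2) and 8 to 10 downward by size, with no test since no residual degree of freedom was left. In 2 alternatives chosen after seeing the data, rows were picked by the pools with ties to the lowest vector value, without and with the limit to genes above 0 in both pools. They gave 1 and 3 risen (1.15% and 4.47% of all tested genes), 5 and 0 fallen (17.1% and 13.3%), 2 and 2 upward and 5 and 1 downward by size. The other pathway lists, 0 risen and 14 fallen as reported, had 2 risen with the median filter, 3 among genes above 0 in both pools, 37 with medians equal, 33 after quantile normalization, 8 after the shift and 3 in the second added alternative. They had 27 fallen with no filter, 26 with medians equal, 25 after quantile normalization and 35 after the shift. Of all tested genes, 29.5% fell with medians equal and 26.6% after quantile normalization, and the other shares are those given above. The median log2 fold of all tested genes was 0.07 as reported, 0.49 with medians equal, 0.48 after quantile normalization and -0.31 after the shift. Of the 20 members followed through every alternative, the folds that turned sign with the scaling were those of FZD3 (0.29 with medians equal and 0.47 after quantile normalization), FZD5 (1.36 after quantile normalization), FZD7 (-0.20 after the shift, and -0.09 without pool 1) and NLK (0.33 with medians equal and 1.82 after quantile normalization). Other RefSeq rows also turned FZD6, WNT5B and DKK3, and TCF7L2 in pool 1. The cause was not tested. No paired analysis was possible because the vector library carries no replicate number. With 1 vector library, its own spread is unmeasured.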
